A study of Mus musculus with 5 samples.

Results

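The genes described here are 43 genes of DNA double-strand break and crosslink repair, chosen by symbol from a list, out of 35976 genes with a row in the count files. They comprise 12 recombinase partners and mediators, 7 genes of end resection and helicases, 10 Fanconi anaemia genes, 7 genes of damage signalling and 7 genes of end joining. All 43 had a row, and all 43 passed the filter on low counts that left 13666 genes for testing. The RNA came from sorted mouse thymocytes of the mature CD8 single-positive stage, the CD8-lineage T cells close to leaving the thymus. Libraries came from mice with a WRPW allele of Runx3 beside a normal one (Runx3 +/WRPW, 3 libraries) and from wild-type mice (Runx3 +/+, 2 libraries). Runx3 is the Runt-domain factor that maintains the CD8 lineage, and the WRPW motif is known from Hes repressors as a binding site for Groucho/TLE corepressors. The labels give no age, sex or strain and do not say whether the libraries of a genotype are separate animals, so p-values reflect how far these 5 samples vary among themselves, and that variation may be technical.

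As background, homologous recombination repairs broken DNA from the sister chromatid and is therefore used mainly in S and G2 phase, with BRCA1 and BRCA2 acting at resected ends. The Fanconi anaemia pathway removes crosslinks between DNA strands at stalled replication forks. End joining ligates broken ends without a template at any stage of the cell cycle, and developing lymphocytes depend on it to assemble their antigen receptor genes.

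Of the 29 recombination and Fanconi genes, 10 were lower in Runx3 +/WRPW cells, 0 were higher and 19 did not pass the test, while none of the 7 end-joining genes passed. The 10 were Brca1, Bard1, Brip1, Rad51ap1, Rad54l, Rad54b, Exo1, Blm, Fanca and Fancd2, with falls of 1.35-fold (Blm) to 3.68-fold (Fancd2). Among damage signalling genes, Clspn fell 3.66-fold, Trp53bp1 rose 1.27-fold and 5 did not pass. A gene was counted as changed at an adjusted p under 0.05 in edgeR's quasi-likelihood test, adjusted over all genes tested. By that rule 7.33% of all genes tested were lower, 6.24% were higher and 13.6% changed either way, against 11 lower and 1 higher of the 43 genes. At such shares, 0 of 7 does not set the end-joining genes apart from all genes tested. The median log2 fold change, Runx3 +/WRPW over Runx3 +/+, was -0.21 for the 29 recombination and Fanconi genes, 0.04 for the 7 end-joining genes and 0.02 for all genes tested. In bulk RNA, fewer cells of a kind that transcribes a gene and less RNA per cell cannot be told apart.

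**Figure D1:**
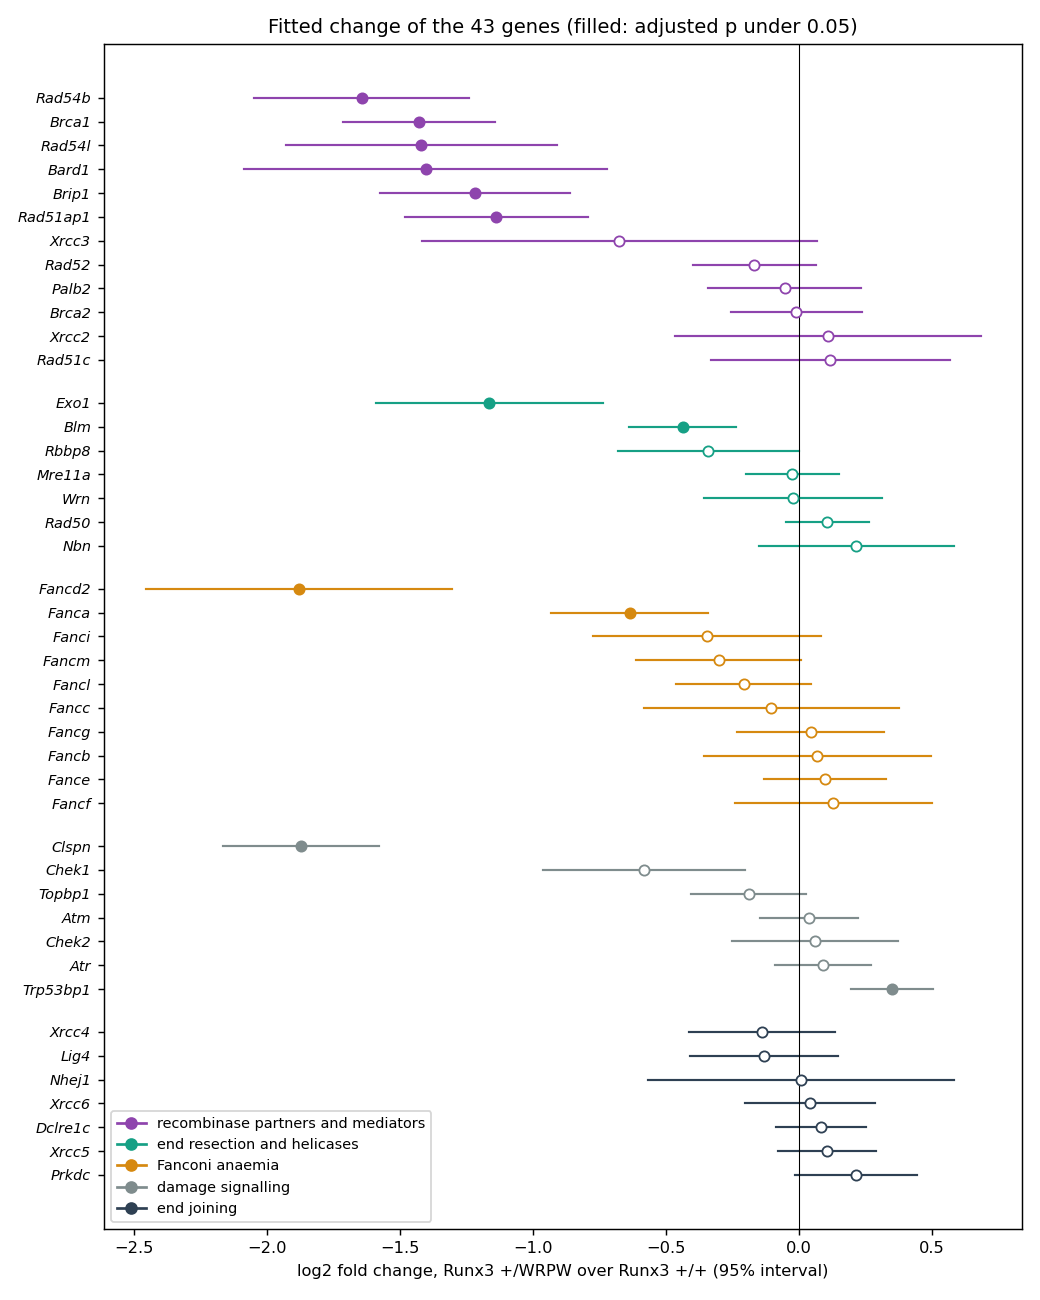
Fitted log2 fold change (x axis, Runx3 +/WRPW over Runx3 +/+) of each of the 43 genes with its 95% interval, grouped by role; filled points passed edgeR's test at an adjusted p under 0.05. The filled points lie left of 0 in 11 genes and right of it in Trp53bp1, and the 7 end-joining genes at the bottom lie close to 0.

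Total counts ran from 15715242 to 43758550 in the Runx3 +/WRPW libraries, against 21635675 and 25526389 in the Runx3 +/+ libraries. Runx3 +/WRPW library 2 stood apart: it had a count at 27414 genes, against 17237 to 18967 in each of the other libraries. Of 9293 genes with no count in the other 4 libraries and a single GENCODE gene model, 4443 had a count there. At most 164 genes had a count in any other library alone, out of a different set of genes silent elsewhere. Over the 9293 genes, library 2 had a pooled rate of 2.10 counts per kb of exon but a median of 0. At that pooled rate, reads of this kind would make up 5.18% to 29.3% of library 2 counts for the 11 lower genes. Fancd2 was at the top, and single genes may differ from that rate. Left out of the fit, library 2 left 11 of the 12 changed genes past the threshold, 10 lower and 1 higher, with Blm the exception (adjusted p = 0.053 in edgeR); 6.36% of all genes tested were then lower, 4.4% were higher and 10.8% changed either way. Genes of dividing cells were lower in 15 of 15 markers, against 10 of the 29 recombination and Fanconi genes. The summed level of the 15 markers was 113 to 129 CPM (counts scaled to library size with TMM factors) in Runx3 +/WRPW and 722 to 784 CPM in Runx3 +/+. For Mki67 that was 31.8 ± 1.33 CPM (SD, n = 3) against 249 ± 6.79 CPM (SD, n = 2). Markers of replication, the Mcm genes and Pcna, summed to 984 to 1094 CPM in Runx3 +/WRPW and 1348 to 1355 CPM in Runx3 +/+, with 4 of 7 lower. Pcna, the replication clamp, averaged 76.6 ± 3.13 CPM (SD, n = 3) in Runx3 +/WRPW and 126 ± 19.5 CPM (SD, n = 2) in Runx3 +/+. Double-positive or immature thymocyte markers summed to 14.2 to 16.2 CPM and 29.7 to 32.3 CPM in Runx3 +/WRPW and Runx3 +/+, with Dntt lower (1 of the 4 tested of 6), Rag2 and Ptcra each under 0.1 CPM in every library and Ptcra at 0 in both Runx3 +/+ libraries. B cell markers summed to 3.04 to 5.36 CPM in Runx3 +/WRPW and 9.71 to 9.75 CPM in Runx3 +/+, with Cd79b lower of 2 tested. CD4 lineage markers summed to 0.184 to 0.623 CPM and 0.841 to 5.64 CPM, myeloid markers to 5.55 to 11.1 CPM and 5.71 to 5.79 CPM, and thymic epithelial markers to 3.47 to 13.8 CPM and 3.04 to 5.12 CPM in Runx3 +/WRPW and Runx3 +/+. Erythroid and natural killer markers summed to at most 0.869 and 0.810 CPM in any library, with Hba-a1 and Hba-a2 at 0 throughout. The labelled cell type's own markers, Cd3e, Cd3d, Cd3g, Cd8a and Cd8b1, summed to 4849 to 5474 CPM in Runx3 +/WRPW and 5697 to 5827 CPM in Runx3 +/+, with Cd3d lower. The part of any of these in the repair gene changes was not tested. Counts per gene do not show which Runx3 allele was present, so they do not check the genotypes.

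The start regions of these genes were searched for sequence motifs, which the choice of genes did not use. RefSeq start windows on GRCm38.p6, 250 bases before to 50 bases after each transcription start, were available for 34 of the 43 genes; Rad54b, Xrcc2, Exo1, Wrn, Rbbp8, Rad50, Nbn, Fancd2 and Prkdc had none in the table. An E2F core, searched on both strands as TTCCCGC, and also as TTGGCGC, and also as TTCGCGC, and also as TTGCCGC, occurred in 21 of the 34 (61.8%), against 18.9% of the 9999 tested genes that have such a window and 25.1% of the 782 such genes that were lower. E2F factors control many genes of S phase. The core was present in 6 of 8 lower genes with a window (75.0%), in 15 of the other 26 (57.7%) and, among those 26, in 3 of 6 end-joining genes. CCAAT, the motif of the factor NF-Y, occurred in 7 of 8 lower genes, in 13 of the other 26 and in 42.7% of all tested genes. TGTGGT, a Runx motif, occurred in 2 of 8, 4 of 34 in all and 15.6% of all tested genes, and the cell cycle element TTTGAA or TTCGAA in 1 of 8, 2 of 34 and 16.9%. For the dividing-cell markers the cell cycle element occurred in 7 of 13. A match is a string of letters and not a site shown to be bound, and some genes have more than 1 window (3 of the 34, and 2018 of the 9999).

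The E2F cores of 6 lower genes and 6 genes that did not pass the test follow in lower case with the core in capitals, 5′ to 3′ on the strand of the gene, since they let the sites be compared letter by letter. In Brca1, Clspn, Brip1 and Rad51ap1 the core began within 30 bases of the RefSeq start, and in Bard1 and Blm it lay further upstream, starting at positions -208 and -142. Of the genes that did not pass the test, Rad51c (positions -5 and 13), Atm (16), Fanci (19), Chek1 (44) and Xrcc6 (-46) also held cores near the start.
Brca1 (chr11:101551918-101551944, minus strand): ctagcgctagGCGCCAAgcggccggtt
Clspn (chr4:126556991-126557017, plus strand): ccgcgtctggGCGCGAAagctcgaact
Brip1 (chr11:86201181-86201207, minus strand): ggggcgggagGCGCGAAttcatctgtg
Rad51ap1 (chr6:126939559-126939585, minus strand): ctggttttcgGCGGGAAttgaaaccgc
Bard1 (chr1:71103164-71103190, minus strand): gccgctcagtTTCCCGCtcaggaagtt
Blm (chr7:80535124-80535150, minus strand): atcatccttcTTGCCGCgcagagcgtg
Fanci (chr7:79392346-79392372, plus strand): gtggagtagaGCGGGAAttttggaagg
Chek1 (chr9:36726609-36726625, minus strand, ending with the window): gcaggttttgGCGGGAA
Atm (chr9:53536640-53536666, minus strand): agagccggaaGCGGGAAggcgtgcgta
Brca2 (chr5:150522443-150522469, plus strand): ttaggccacaGCGGGAAacagacacac
Xrcc6 (chr15:82016313-82016339, plus strand): gggggtggaaGCGGGAAatgcgagtgg
Xrcc4 (chr13:90089692-90089718, minus strand): cccgctgtgcTTCCCGCtcgctccagc

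**Figure D2:**
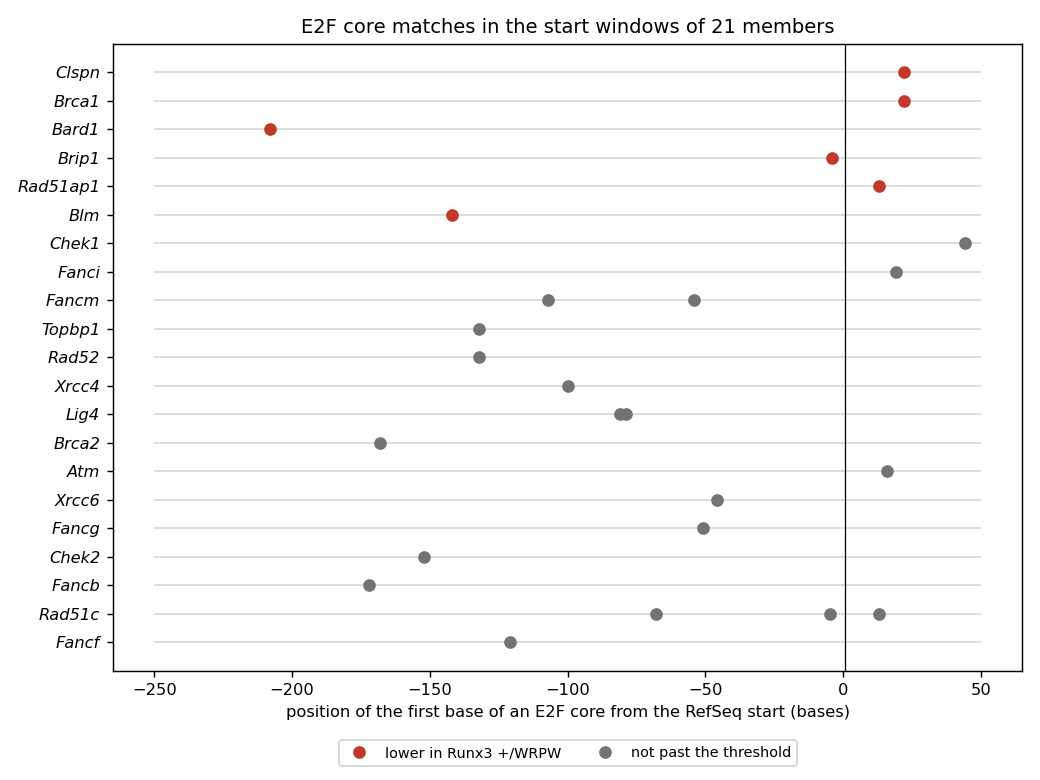
First base of each E2F core (x axis, bases from the RefSeq start) in the windows of the 21 genes that held any; red marks genes lower in Runx3 +/WRPW and grey marks genes that did not pass the test. Lig4 and Rad51c have more than 1 start window, whose cores share a line. Cores occurred on both sides of the start in both kinds of gene.

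Recombinase partners and mediators divided into 6 genes that fell and 6 that did not pass. Brca1 (chromosome 11, 101488761 to 101551955, GRCm38), which encodes the ubiquitin ligase that starts recombination at resected breaks, stood at 10.0, 10.9 and 12.2 CPM in Runx3 +/WRPW libraries 1 to 3, against 28.7 and 30.7 CPM in the Runx3 +/+ libraries. Bard1 (chromosome 1, 71027535 to 71103141), its obligate partner, was at 5.5998, 8.78 and 5.11 CPM in Runx3 +/WRPW and at 20.4 and 13.6 CPM in Runx3 +/+. Brip1 (chromosome 11, 86058136 to 86201215), a helicase that binds BRCA1, was at 6.17, 7.66 and 6.39 CPM in Runx3 +/WRPW and at 14.4 and 16.8 CPM in Runx3 +/+. In these 3 genes every Runx3 +/WRPW library lay below every Runx3 +/+ library. The log2 fold changes were -1.43 ± 0.12 (SE; edgeR adjusted p = 0.00195) for Brca1, -1.40 ± 0.28 (adjusted p = 0.0269) for Bard1 and -1.22 ± 0.15 (adjusted p = 0.00592) for Brip1. Bard1 had the widest spread between the Runx3 +/+ libraries, and its call held in 1 of the 5 fits that each left out a library, the fit without Runx3 +/WRPW library 2 (adjusted p of 0.018 to 0.179 over the 5).

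Further genes of strand pairing showed the same order of libraries. Rad51ap1 (chromosome 6, 126923415 to 126939621), which encodes a factor that promotes strand pairing, was at 4.87, 4.42 and 4.92 CPM in Runx3 +/WRPW and at 10.7 and 10.2 CPM in Runx3 +/+. Rad54l (chromosome 4, 116094261 to 116123700), a DNA motor protein of strand exchange, was at 5.07, 7.29 and 4.55 CPM in Runx3 +/WRPW and at 14.8 and 15.1 CPM in Runx3 +/+. Its relative Rad54b (chromosome 4, 11558920 to 11615808) was at 3.20, 3.18 and 3.54 CPM in Runx3 +/WRPW and at 11.3 and 9.43 CPM in Runx3 +/+. In all of these the genotypes did not overlap, and Rad54l was highest within Runx3 +/WRPW in library 2. Rad54b had the largest change of the mediators, with a log2 fold change of -1.64 ± 0.17 (edgeR adjusted p = 0.00348), against -1.42 ± 0.21 for Rad54l (adjusted p = 0.0108) and -1.14 ± 0.14 for Rad51ap1 (adjusted p = 0.00645). In the GENCODE M21 annotation, exons of Rad54b share 35.8% of their bases with Fsbp on the same strand, and 15.4% of Rad54l exons lie over Lrrc41 on the other strand, so these counts may hold or have lost reads of the neighbour.

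The 6 mediators that did not pass include Brca2, the breast cancer susceptibility gene whose product acts downstream of BRCA1 in recombination, at 22.8, 27.0 and 24.5 CPM in Runx3 +/WRPW and 24.9 CPM in each Runx3 +/+ library. Its log2 fold change was -0.01, with a 95% interval of -0.26 to 0.24 (edgeR adjusted p = 0.958). Palb2, which joins BRCA1 to BRCA2, had a log2 fold change of -0.05 (95% interval -0.34 to 0.23), and Rad52, a strand-annealing protein, one of -0.17 (-0.40 to 0.06). Rad51c and Xrcc2, which act in strand exchange complexes, had log2 fold changes of 0.12 (-0.33 to 0.57) and 0.11 (-0.47 to 0.68). Xrcc3, the partner of Rad51c in such a complex, was at 1.74, 1.68 and 1.66 CPM in Runx3 +/WRPW and at 2.90 and 2.52 CPM in Runx3 +/+. Its libraries did not overlap between the genotypes, but with 27 to 76 counts per library the interval of its log2 fold change ran from -1.42 to 0.07 (adjusted p = 0.204).

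**Figure D3:**
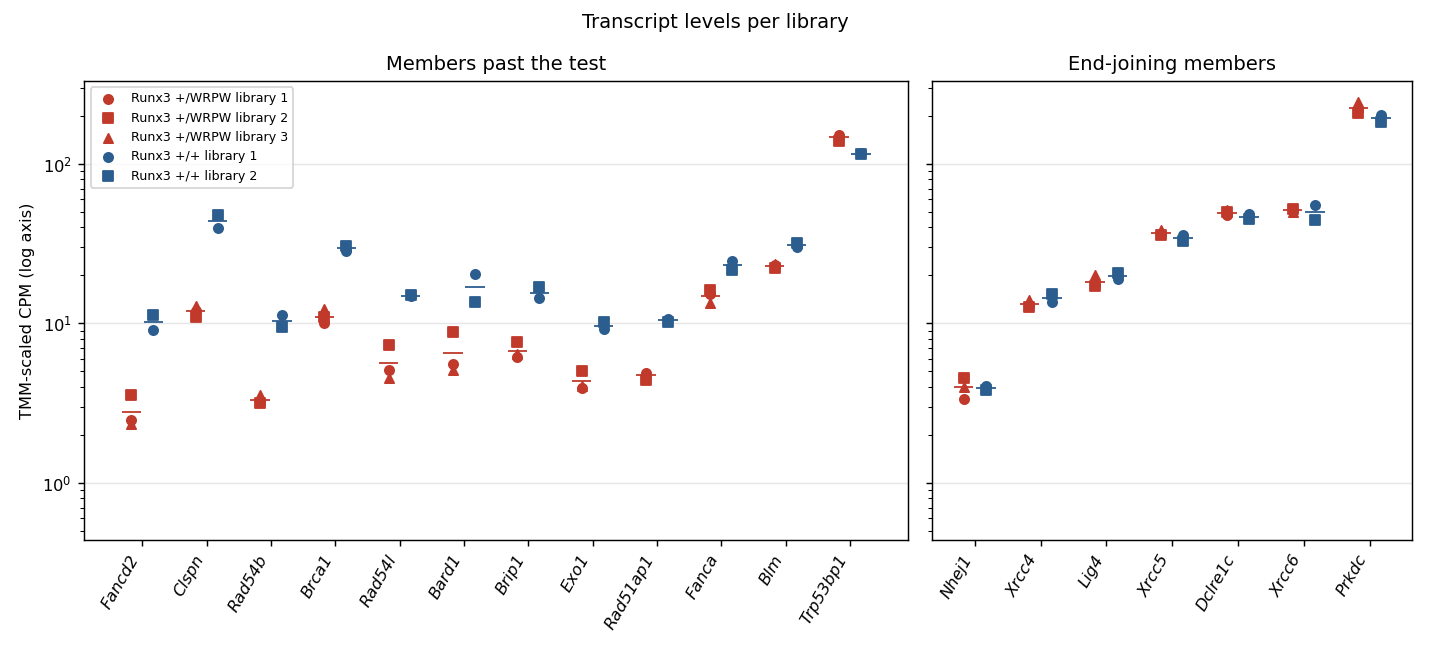
TMM-scaled CPM per library (y axis, log scale) of the 12 genes past the test (left) and the 7 end-joining genes (right); red points are Runx3 +/WRPW libraries, blue points are Runx3 +/+ libraries and short lines are means. The genotypes are apart in all 12 genes on the left, which were picked by that test, so their separation is no further evidence. They overlap in 5 of the 7 genes on the right. Of all genes tested, 23.8% had every Runx3 +/WRPW library below every Runx3 +/+ library and 24.7% had every one above.

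Among genes of end resection and helicases, Exo1 and Blm fell and 5 did not pass. Exo1 (chromosome 1, 175880768 to 175911396), the exonuclease of long-range resection, was at 3.95, 5.04 and 4.05 CPM in Runx3 +/WRPW and at 9.20 and 10.2 CPM in Runx3 +/+. Blm (chromosome 7, 80454993 to 80535148), the Bloom syndrome helicase, was at 23.3, 22.2 and 23.6 CPM in Runx3 +/WRPW and at 30.4 and 32.01 CPM in Runx3 +/+. Both genes were lower in every Runx3 +/WRPW library, Exo1 by -1.16 ± 0.18 on the log2 scale (edgeR adjusted p = 0.0113) and Blm by -0.44 ± 0.08 (adjusted p = 0.0232), but the call of Blm was lost in each of the 5 fits that left out a library (adjusted p of 0.053 to 0.164). The nuclease complex that senses breaks and starts resection is made of MRE11, RAD50 and NBS1. Its genes had log2 fold changes of -0.02 for Mre11a (95% interval -0.20 to 0.15), 0.11 for Rad50 (-0.05 to 0.26) and 0.21 for Nbn (-0.15 to 0.58). Wrn, the Werner syndrome helicase, had a log2 fold change of -0.02 (-0.36 to 0.31), with library 2 the lowest of the Runx3 +/WRPW libraries at 60.2 CPM against 77.2 and 80.2 CPM. Rbbp8, which encodes the resection factor CtIP, was at 22.5, 18.7 and 23.5 CPM in Runx3 +/WRPW and at 30.2 and 24.6 CPM in Runx3 +/+, with no overlap and an edgeR adjusted p = 0.168.

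Of the 10 Fanconi anaemia genes, Fancd2 and Fanca fell and 8 did not pass. Fancd2 (chromosome 6, 113531640 to 113597020), whose product is clamped onto DNA at crosslinks, was at 2.47, 3.55 and 2.35 CPM in Runx3 +/WRPW and at 9.06 and 11.3 CPM in Runx3 +/+. Its log2 fold change of -1.88 ± 0.24 (edgeR adjusted p = 0.00673), on 51 to 108 counts per Runx3 +/WRPW library and 194 and 282 counts in the Runx3 +/+ libraries, was the largest of the 43 genes in size, closely followed by Clspn, and without Runx3 +/WRPW library 2 it was -2.08 (adjusted p = 0.00756). Fanca (chromosome 8, 123266294 to 123318651), a core complex subunit, was at 15.3, 16.1 and 13.4 CPM in Runx3 +/WRPW and at 24.7 and 21.8 CPM in Runx3 +/+. Its fall of 1.55-fold (edgeR adjusted p = 0.0235) held in 1 of the 5 fits that left out a library, the one without Runx3 +/WRPW library 2, and 10.5% of its exon bases lie over Zfp276 on the other strand. Fanci, whose product forms a clamp with that of Fancd2, was at 11.3, 13.9 and 9.52 CPM in Runx3 +/WRPW and at 15.5 and 13.9 CPM in Runx3 +/+. Those groups overlapped, and its log2 fold change of -0.35 had a 95% interval of -0.77 to 0.08 (edgeR adjusted p = 0.253). The core complex genes Fancb, Fancc, Fance, Fancf and Fancg had log2 fold changes of -0.10 to 0.13, and Fancl, the ubiquitin ligase of the complex, and Fancm, its DNA translocase, had -0.21 and -0.30, none of them past the test.

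In damage signalling, Clspn fell and Trp53bp1 rose. Clspn (chromosome 4, 126556957 to 126594533) encodes claspin, the adaptor through which ATR activates CHK1 at stalled forks, and was at 11.9, 10.96 and 12.8 CPM in Runx3 +/WRPW and at 39.5 and 47.8 CPM in Runx3 +/+. Trp53bp1 (chromosome 2, 121194835 to 121296354) encodes 53BP1, which protects broken ends from resection and favours end joining, and was at 151, 140 and 152 CPM in Runx3 +/WRPW and at 117 and 116 CPM in Runx3 +/+. The genotypes did not overlap in either gene. The log2 fold change of Clspn was -1.87 ± 0.12 (edgeR adjusted p = 0.00115), the smallest adjusted p of the 43 genes, and that of Trp53bp1 was 0.35 ± 0.06 (adjusted p = 0.0207). The call of Trp53bp1 was lost with no low-count filter and held in 1 of the 5 fits that left out a library, the one without Runx3 +/WRPW library 2, and 15.04% of its exon bases lie over Tubgcp4 on the other strand.

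Chek1, the effector kinase of ATR, was at 16.4, 14.1 and 19.9 CPM in Runx3 +/WRPW and at 23.9 and 26.5 CPM in Runx3 +/+. Its log2 fold change of -0.58 had a 95% interval of -0.96 to -0.20 and an edgeR adjusted p = 0.0609, so it was not counted as changed. Its call depends on the setting: it was called lower in DESeq2 (adjusted p = 0.00256), under a filter of 1 CPM throughout a genotype (edgeR adjusted p = 0.0489) and without Runx3 +/WRPW library 3 (edgeR adjusted p = 0.0456), while the other alternatives gave 0.0621 to 0.412. The other kinase genes did not pass. For Chek2, Atm and Atr the log2 fold changes were 0.06 (95% interval -0.25 to 0.37), 0.04 (-0.15 to 0.22) and 0.09 (-0.09 to 0.27). Topbp1, the activator of ATR, was at 194, 181 and 194 CPM in Runx3 +/WRPW and at 234 and 198 CPM in Runx3 +/+ (adjusted p = 0.22).

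No end-joining gene passed the test in edgeR, and 0 had an unadjusted p under 0.05. DESeq2 gave 0 calls and 1 unadjusted p under 0.05. Prkdc, the catalytic subunit of the DNA-dependent kinase, was at 217, 210 and 245 CPM in Runx3 +/WRPW and at 204 and 183 CPM in Runx3 +/+. Xrcc5, which encodes KU80, was at 36.6, 35.9 and 38.3 CPM in Runx3 +/WRPW and at 35.6 and 33.1 CPM in Runx3 +/+. Xrcc6, which encodes its partner KU70, was at 51.5, 51.9 and 50.04 CPM in Runx3 +/WRPW and at 55.2 and 44.4 CPM in Runx3 +/+. Prkdc and Xrcc5 were higher in every Runx3 +/WRPW library, by small amounts, and Xrcc6 overlapped. The nuclease gene Dclre1c, which encodes Artemis and opens hairpin ends in receptor gene assembly, was at 47.8, 49.9 and 51.2 CPM in Runx3 +/WRPW and at 48.6 and 45.1 CPM in Runx3 +/+. Lig4, the ligase, was at 17.4, 17.2 and 20.1 CPM in Runx3 +/WRPW and at 19.1 and 20.9 CPM in Runx3 +/+. Its scaffold Xrcc4 was at 12.9, 12.7 and 14.0 CPM in Runx3 +/WRPW and at 13.7 and 15.4 CPM in Runx3 +/+. All of these overlapped between the genotypes. Nhej1, which encodes XLF, was at 3.3599, 4.55 and 4.002 CPM in Runx3 +/WRPW and at 4.06 and 3.80 CPM in Runx3 +/+, also overlapping. The log2 fold changes ran from -0.14 for Xrcc4 to 0.21 for Prkdc, and the 95% intervals lay within -0.57 and 0.58, or within -0.42 and 0.44 without Nhej1.

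Recombination and end-joining genes can be set side by side by their summed level in each library. The 12 recombinase partners and mediators summed to 122, 138 and 121 CPM in Runx3 +/WRPW libraries 1 to 3 and to 192 and 190 CPM in the Runx3 +/+ libraries. All 29 recombination and Fanconi genes, these 12 included, summed to 594, 578 and 597 CPM in Runx3 +/WRPW and to 691 and 695 CPM in Runx3 +/+. The mean sum in Runx3 +/WRPW was 0.664 of that in Runx3 +/+ for the 12 genes and 0.851 for the 29. It was 0.956 for the end resection and helicase genes and 0.869 for the Fanconi anaemia genes. The 7 end-joining genes summed to 387, 382 and 423 CPM in Runx3 +/WRPW and to 380 and 345 CPM in Runx3 +/+. The sums of the recombinase partners did not overlap between the genotypes. Those of end joining were barely apart, and without Prkdc, their largest term, they overlapped, at 170, 172 and 178 CPM in Runx3 +/WRPW and 176 and 163 CPM in Runx3 +/+. Every Runx3 +/WRPW library lay below every Runx3 +/+ library in 15 of the 29 recombination and Fanconi genes and in 0 of the 7 end-joining genes, where 23.8% of all genes tested did, and above in 3 and 2 of them, where 24.7% of all genes tested did. The genes of a list are not replicates, so the difference between the lists was not tested.

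**Figure D4:**
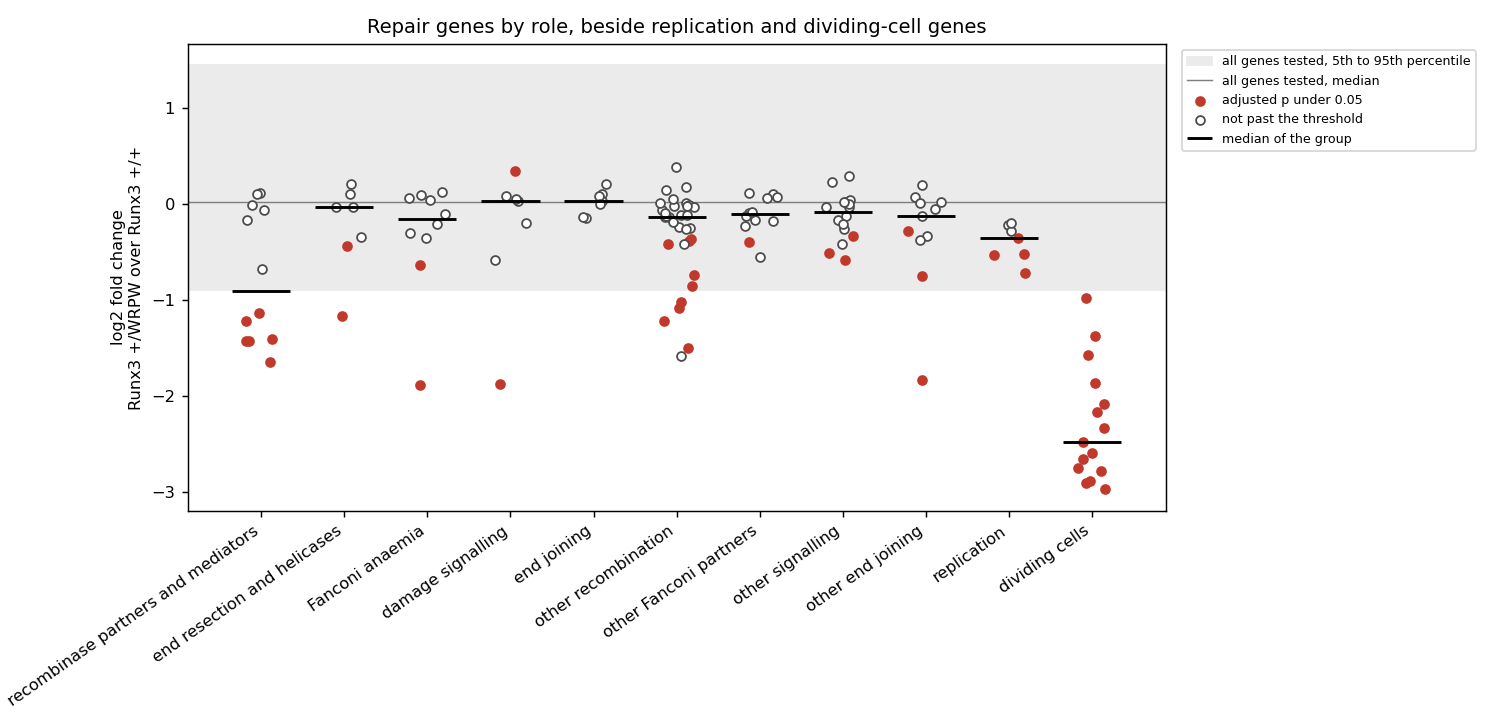
Log2 fold change (y axis, Runx3 +/WRPW over Runx3 +/+) of each tested gene by role; red points passed edgeR's test, black lines are medians and the grey band spans the 5th to 95th percentile of all genes tested. The recombinase partners have a median of -0.91, the end-joining genes one of 0.04 and the dividing-cell markers, at the right, one of -2.47.

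Within a library, the ratio of the counts of partner genes is free of library scaling. Brca1 had 0.438, 0.404 and 0.5 reads per Brca2 read in Runx3 +/WRPW and 1.15 and 1.23 in Runx3 +/+. Fancd2 had 0.218, 0.254 and 0.246 reads per Fanci read in Runx3 +/WRPW and 0.584 and 0.810 in Runx3 +/+. Counts of Fanci may hold reads of Polg, which lies over 15.95% of its exon bases on the other strand. Clspn had 0.726, 0.775 and 0.646 reads per Chek1 read in Runx3 +/WRPW and 1.65 and 1.80 in Runx3 +/+. These pairs were chosen after their values were seen and are not tested. In each of them the ratio was lower in every Runx3 +/WRPW library, library 2 included.

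**Figure D5:**
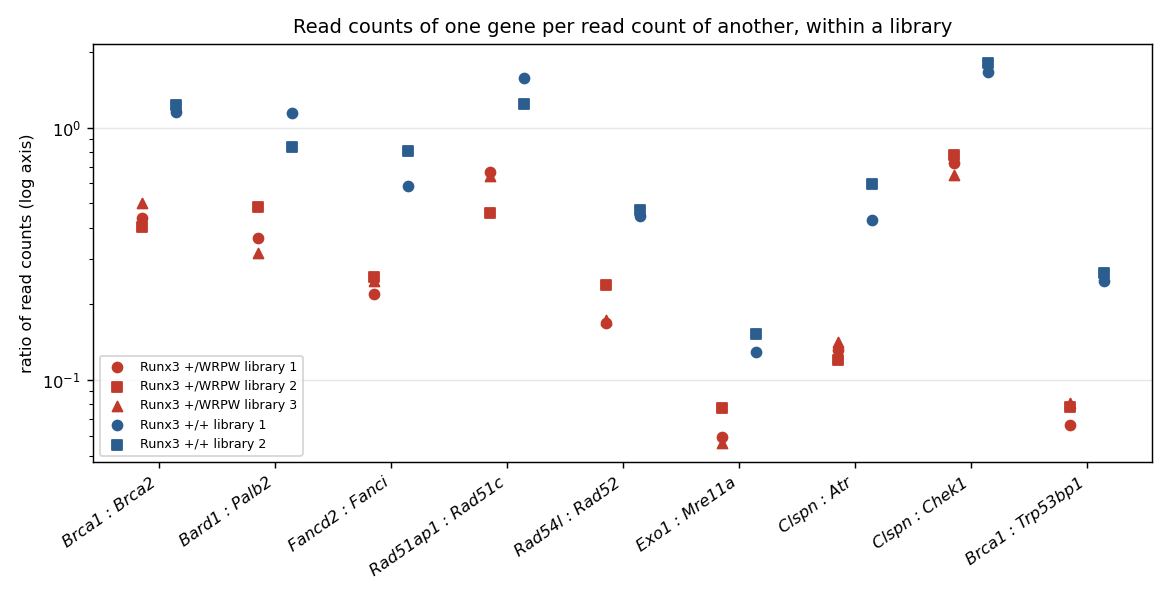
Ratio of read counts of 9 pairs of genes (y axis, log scale) in each library, with Runx3 +/WRPW in red and Runx3 +/+ in blue. The genotypes are apart in all 9 pairs, which were chosen after their values were seen; ratios are comparable between libraries, not between pairs, since transcript lengths differ.

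Levels per kb of exon show where the genes that fell stood among the 43. In Runx3 +/WRPW the 11 lower genes ran from 0.351 to 2.62 CPM per kb (median 0.984), and in Runx3 +/+ from 1.15 to 6.07 CPM per kb (median 2.17). The 31 genes that did not pass had medians of 3.98 CPM per kb in Runx3 +/WRPW and 4.27 in Runx3 +/+. Atm was the most abundant per kb in both genotypes, at 28.8 CPM per kb in Runx3 +/WRPW and 28.1 in Runx3 +/+. Fancc was the least abundant in Runx3 +/+ (0.839 CPM per kb) and Fancd2 in Runx3 +/WRPW (0.351). The exon length is that of all annotated transcripts together, which understates genes with many rarely used exons.

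Other genes of the same pathways, from a list of 72 genes of which 71 had a row and all 71 were tested, fell in 16 cases, rose in 0 and did not pass in 55, with a median log2 fold change of -0.12. Of 32 other recombination genes 9 fell. The resolvase gene Gen1, which cuts joined chromosomes apart, was 1.80-fold lower (edgeR adjusted p = 0.00571), Hells, a chromatin remodeller, 1.66-fold (adjusted p = 0.00636) and Fignl1, an ATPase, 2.33-fold (adjusted p = 0.00726). Sfr1, Eme1, Rpa1, Dna2 and Mms22l also fell. Of 12 other Fanconi partners the ubiquitin ligase Rfwd3 fell, 1.32-fold (adjusted p = 0.0372), and of 16 other signalling genes Timeless, a fork protection factor, fell 1.43-fold (adjusted p = 0.00672), the histone gene H2afx 1.4997-fold (adjusted p = 0.0112) and the phosphatase gene Cdc25a 1.25-fold (adjusted p = 0.0207). Of 11 other end-joining genes 3 fell. Among them were Lig1, the replicative ligase, lower by 1.68-fold (adjusted p = 0.0028), and Dntt, the terminal transferase of receptor gene assembly and also a marker of immature thymocytes, by 3.57-fold (adjusted p = 0.028). By share, 28.1% of the other recombination genes and 27.3% of the other end-joining genes were lower, where 7.33% of all genes tested were. Their median log2 fold changes were -0.13 and -0.12. These wider lists thus did not differ as the 29 recombination and Fanconi genes and the 7 end-joining genes did.

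How many genes passed, among all genes tested as among the 43, depended most on the Runx3 +/+ libraries, of which there are 2. Of the 43 genes, 3 passed without Runx3 +/+ library 1 (Brca1, Brip1 and Clspn) and 2 without Runx3 +/+ library 2 (Brca1 and Clspn), with the remaining Runx3 +/+ library assumed to vary like the other genotype. Without Runx3 +/WRPW libraries 1, 2 and 3 the numbers were 8, 11 and 9, the last with Chek1 and 8 of the 12. In those fits 5.71%, 10.8% and 6.97% of all genes tested changed. All 12 genes kept their sign in all 5 fits, and Brca1 and Clspn passed in all 5. Of the 29 recombination and Fanconi genes, 7, 9 and 7 passed without Runx3 +/WRPW libraries 1, 2 and 3, and 2 and 1 without Runx3 +/+ libraries 1 and 2. For the other pathway genes the numbers were 8, 15 and 8, and 3 and 3.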

How the data were processed

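Each deposited file holds raw integer read counts per gene symbol for one sample, to which the authors applied no scaling. The submitters' processing notes list cutadapt 4.0 and HISAT2 2.2.1 as well as featureCounts 2.0.8 and edgeR 3.36.0, without their settings, and the mouse build mm10. Which annotation was counted, whether strand was used and how multiply mapped reads were treated is not stated there, so reads of genes that overlap on opposite strands may be mixed. In the headers, Runx3 +/+ library 2 carries the number 3, and Runx3 +/WRPW library 2 has the name of an aligner; samples followed the GEO records. No pair of libraries agreed within sampling noise (smallest chi-square per gene 14.2).

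Genotypes were compared with edgeR 4.0.16 in R 4.3.3 (TMM, filterByExpr with a minimum count of 10, glmQLFit, glmQLFTest; Benjamini-Hochberg over 13666 genes). A standard error is |log2 fold change| / √F, and intervals are 95%. PCR copies could not be told from separate RNA molecules. The pipeline was tested on simulated data. Alternatives were RLE factors, DESeq2 1.42.0, other filters, the replicate number as a block and leaving out each library. Exon lengths and overlaps came from GENCODE M21, coordinates and start windows from RefSeq, both on GRCm38. The members and lists were chosen with earlier results of these data known. All members are named, per-library values are given for those past the test and for end joining, and of the other pathway genes those past the test are named, except a few that are not reported here, with values for up to 4 per class by smallest p-value; values of other members, and the genes of the count ratios, were added after they were seen.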

Additional observations from a re-analysis of the deposited data

How the results depend on the processing

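RLE factors moved no total of changed genes by over 1.5 times, nor did a stricter filter that asked for 1 CPM throughout a genotype, although that filter and DESeq2 each added Chek1, for 2 lower damage signalling genes rather than 1. With no low-count filter, 1079 of 28583 genes changed (3.77%), rather than 1855 of 13666 (13.6%). That fit called 1 gene in damage signalling and 9 among the other pathway genes. DESeq2 called 3441 of the 28581 genes to which it gave a p-value (12%), and 27 of the other pathway genes. The fit with the replicate number as a block called 754 genes, or 5.52% of all genes tested. It called 6 of the 43, 5 of the recombination and Fanconi genes, 1 in damage signalling and 6 of the other pathway genes. The replicate numbers are only names. Same-numbered libraries had correlations of deviations of -0.05 and 0.002, and only numbers 1 and 2 occur in both genotypes. Leaving out 1 library gave 277 to 1431 genes, 2 to 11 of the 43, 1 to 9 recombination and Fanconi genes, 1 to 2 in damage signalling, 0 to 0 in end joining and 3 to 15 other pathway genes.

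None of the 12 changed genes changed sign under any alternative, whereas 14 genes that did not pass did. Nhej1 was at -0.0104 with the block and -0.0182 in DESeq2. Leaving out 1 library, log2 fold changes ran from -0.0774 to 0.0387 for Brca2, -0.0482 to 0.25 for Rad51c, -0.24 to 0.51 for Xrcc2, -0.16 to 0.0886 for Wrn, -0.0771 to 0.0031 for Mre11a, -0.11 to 0.22 for Fancb, -0.36 to 0.16 for Fancc, -0.0085 to 0.23 for Fancf, -0.16 to 0.23 for Fancg, -0.0065 to 0.0846 for Atm, -0.0146 to 0.16 for Atr, -0.0746 to 0.16 for Chek2, -0.12 to 0.17 for Xrcc6 and -0.10 to 0.11 for Nhej1. The cause was not tested. With 2 Runx3 +/+ libraries, the changes of the low genes Xrcc3 and Nhej1 could not be told from 0 at this depth. The fitted log2 fold change was -0.68 for Xrcc3 and 0.009 for Nhej1.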

Other observations

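Among structure-cutting enzymes, Gen1 and Eme1 fell, by 1.80-fold and 2.11-fold, while Mus81, the nuclease that EME1 partners, had a log2 fold change of -0.26 (edgeR adjusted p = 0.065) and the scaffold Slx4 one of -0.12 (adjusted p = 0.28). Parpbp, a negative regulator of recombination, was at 0.8, 2.30 and 1.15 CPM in Runx3 +/WRPW and at 4.16 CPM in each Runx3 +/+ library, without passing (adjusted p = 0.0841).

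Mdc1, Rif1 and Mad2l2, whose products act beside 53BP1, did not pass, while the signalling gene H2afx was lower, as given above. Mdc1, the adaptor at damaged chromatin, had a log2 fold change of 0.29 (adjusted p = 0.067 in edgeR), Rif1, an effector of 53BP1, one of 0.23 (adjusted p = 0.132) and Mad2l2, a shieldin subunit, one of -0.21 (adjusted p = 0.356). Polq, the polymerase of alternative end joining, was at 19.3, 20.6 and 22.8 CPM in Runx3 +/WRPW and at 28.0 and 26.2 CPM in Runx3 +/+ (adjusted p = 0.0675). These genes were singled out after their values were seen.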
